A study of Mus musculus with 49 samples.

Results

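Dual-specificity phosphatases remove phosphate from both threonine and tyrosine, and most of the genes described here act on MAP kinases. Their mRNA was followed in mouse CD8+ T cells, the lineage that gives rise to killer T cells, during culture with IL-2, a growth factor of T cells. The 10 genes *Dusp1*, *Dusp2*, *Dusp4*, *Dusp5*, *Dusp6*, *Dusp7*, *Dusp10*, *Dusp11*, *Dusp16*, and *Dusp22* were taken by symbol from the 23992 gene symbols in the RNA-seq files, each by its longest transcript. The cells were purified from spleens of adult mice of a *Stat5a* line and a *Stat5b* line, both backcrossed to C57BL/6J. In the homozygous KI mice of these lines, made by CRISPR-Cas9 editing of the germ line, STAT5A carries Y694F or STAT5B carries Y699F. The tyrosine phosphorylated upon IL-2 signaling is thereby lost. WT mice of each line, littermates of the KI mice, were its controls. The labels do not give the ages of the mice behind single libraries, nor whether the replicates of a group came from separate mice or cultures, so that p-values measure the spread between these libraries, which may be technical.

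Each of the 16 groups (line, genotype, and time) had 3 libraries. Cells at 0 hr were freshly isolated and had no IL-2, and the others had been cultured for 4, 24, or 48 hr with IL-2 (recombinant, human) at 500 IU/ml. No cells cultured without IL-2 were among the libraries, so the effect of IL-2 and that of time in culture cannot be told apart. One *Stat5a* KI library at 4 hr, replicate 3, had 1028515 reads on the transcripts, 5.675% of its mapped reads, and was left out of all tests, which leaves 2 libraries in that group. The 47 libraries used had 17369112 to 60200653 such reads, with a median of 41410666. Another 2 libraries stood apart from the rest of their groups. In WT replicate 2 of the *Stat5a* line at 4 hr, 44.863% of mapped reads lay on the transcripts, against 71.712% and 72.936% in the other replicates, and WT replicate 3 of that line at 0 hr had 58.8 RPKM of *Dusp2*, against 168.0 and 207.8 RPKM. The counts of the 10 genes called were also made without both libraries, and are named below where they differed. The counts over all genes and over marker and pathway lists were made with both. The mRNA of *Stat5a* and *Stat5b* themselves was called in none of the comparisons of KI with WT cells, with log2 fold changes from −0.18 to 0.47, and since the KI alleles are small substitutions in genes that are still transcribed this checks no label. *Cish*, a target of STAT5 and a feedback inhibitor of cytokine signaling, was lower in *Stat5b* KI cells at 4, 24, and 48 hr (−1.93, −2.32, and −2.54) and in *Stat5a* KI cells at 48 hr (−1.29). In the *Stat5a* line its mean at 24 hr was 28.78 (WT) and 15.83 (KI) RPKM, without overlap of the libraries. At 4 hr the means there were 34.27 and 34.05 RPKM, and the libraries overlapped.

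MAP kinases are switched on by phosphorylation of a threonine and a tyrosine in their activation loop, and dual-specificity phosphatases switch them off. *Dusp1*, *Dusp2*, *Dusp4*, and *Dusp5* encode nuclear enzymes whose genes are themselves turned on by MAP kinase signaling, *Dusp6* and *Dusp7* encode cytoplasmic enzymes with a preference for ERK, and *Dusp10* and *Dusp16* encode enzymes that prefer p38 and JNK. *Dusp11* and *Dusp22* belong to the atypical group, of which DUSP11 acts on the 5′ triphosphates of RNA and DUSP22 dampens T cell receptor signaling through the kinase LCK.

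In GRCm38, the build of the files, *Dusp1* lies on chromosome 17 at 26505591 to 26508472 (minus strand, 4 exons), *Dusp2* on chromosome 2 at 127336159 to 127338377 (plus strand, 4 exons), and *Dusp5* on chromosome 19 at 53529145 to 53541809 (plus strand, 4 exons). *Dusp4* lies on chromosome 8 at 34807610 to 34819894 and *Dusp10* on chromosome 1 at 184034381 to 184075636, both on the plus strand. The length given for *Dusp5* in the files, 1155 bases, is that of its coding sequence, and the RefSeq transcript has 1815 bases. Exons of *Dusp6* overlap 626 bases of *Gm34921* and exons of *Dusp16* overlap part of *1700055D16Rik*, each on the other strand, and reads of these partners cannot be told apart without strand.

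Promoters are shown for 3 of the 4 nuclear genes, which were among the 4 members with the highest level at 0 hr, since they share a fall in culture and differ in the motifs within reach of the start site. Each is the stretch of 250 bases just upstream of the transcript's first base, read 5′ to 3′ on the gene's strand from RefSeq's GRCm38.p6, with the matches to 5 searched motifs in capitals. A promoter was found for 9 of the 10 genes, *Dusp4* being the other.
*Dusp1* (chr17:26508473-26508722, minus strand): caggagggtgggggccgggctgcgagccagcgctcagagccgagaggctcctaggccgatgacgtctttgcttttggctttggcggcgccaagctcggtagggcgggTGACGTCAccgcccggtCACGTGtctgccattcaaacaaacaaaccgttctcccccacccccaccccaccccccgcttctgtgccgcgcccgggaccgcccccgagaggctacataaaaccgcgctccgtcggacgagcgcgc
*Dusp2* (chr2:127335909-127336158, plus strand): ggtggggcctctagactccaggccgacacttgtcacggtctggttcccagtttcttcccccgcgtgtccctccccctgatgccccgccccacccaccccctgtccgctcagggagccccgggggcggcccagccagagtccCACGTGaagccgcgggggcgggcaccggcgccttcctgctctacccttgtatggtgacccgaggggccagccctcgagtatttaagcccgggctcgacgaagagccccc
*Dusp5* (chr19:53528895-53529144, plus strand): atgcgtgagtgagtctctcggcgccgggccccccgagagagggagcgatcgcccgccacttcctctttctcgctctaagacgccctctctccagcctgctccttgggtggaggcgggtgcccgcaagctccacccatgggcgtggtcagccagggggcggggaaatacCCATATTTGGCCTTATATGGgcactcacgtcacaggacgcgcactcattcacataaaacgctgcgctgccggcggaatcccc

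Both strands were searched. The CRE, TGACGTCA, was found in 1 of the 9 promoters, that of *Dusp1* and in 1.55% of 32851 promoters of the same length. The E-box CACGTG was found in *Dusp1*, nearer to the start than the CRE, and in *Dusp2*, and in 6.02% of all. The CArG box, the site of serum response factor, was found in *Dusp5* at 82 to 73 and again at 72 to 63 bases upstream, and in 1.47% of all. The GAS motif TTCNNNGAA, the site of STAT factors, was in 0 of the 9 and in 7.02% of all, and the AP-1 motif TGANTCA in 0 of the 9 and in 6.75% of all. No motif overlapped another. The promoters of *Dusp6* and *Dusp10*, genes that also fell in culture, held no match, nor did those of *Dusp7*, *Dusp11*, *Dusp16*, and *Dusp22*. GC content was 68.4% in *Dusp1*, 70.4% in *Dusp2*, and 64.0% in *Dusp5*, against a median of 52.4% over all. A match is a stretch of letters and was not tested for binding.

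In freshly isolated WT cells the 10 genes differed widely in level, in RPKM (reads per kilobase of transcript, relative to a library's mapped reads), a scale per length on which genes can be compared. In the *Stat5b* line the mean was 159.9 ± 7.07 RPKM for *Dusp1* (SD, n = 3), 125.2 ± 18.1 for *Dusp2*, 112.8 ± 6.09 for *Dusp5*, and 107.6 ± 4.60 for *Dusp10*. The ranges over libraries of *Dusp2* and *Dusp5* and those of *Dusp5* and *Dusp10* overlapped, whereas that of *Dusp1* did not overlap the next. *Dusp11* followed at 31.2, *Dusp6* at 15.5, *Dusp4* at 8.76, *Dusp7* at 8.66, *Dusp16* at 2.09, and *Dusp22* at 1.46 RPKM, of which only the ranges of *Dusp4* and *Dusp7* overlapped. In the *Stat5a* line *Dusp1*, *Dusp2*, *Dusp10*, and *Dusp5* were again the highest, at means of 160.0, 144.9, 92.2, and 87.3 RPKM, and each overlapped the next in order. By 48 hr the order had turned over, and *Dusp11* was highest in WT cells of both lines, with 27.8 (*Stat5a*) and 26.8 RPKM (*Stat5b*). *Dusp1* then stood at 5.36 and 6.41 RPKM. The lowest levels rested on few reads, down to 88 reads in a library for *Dusp4*, 96 for *Dusp6*, and 219 for *Dusp22*.

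**Figure D1:**
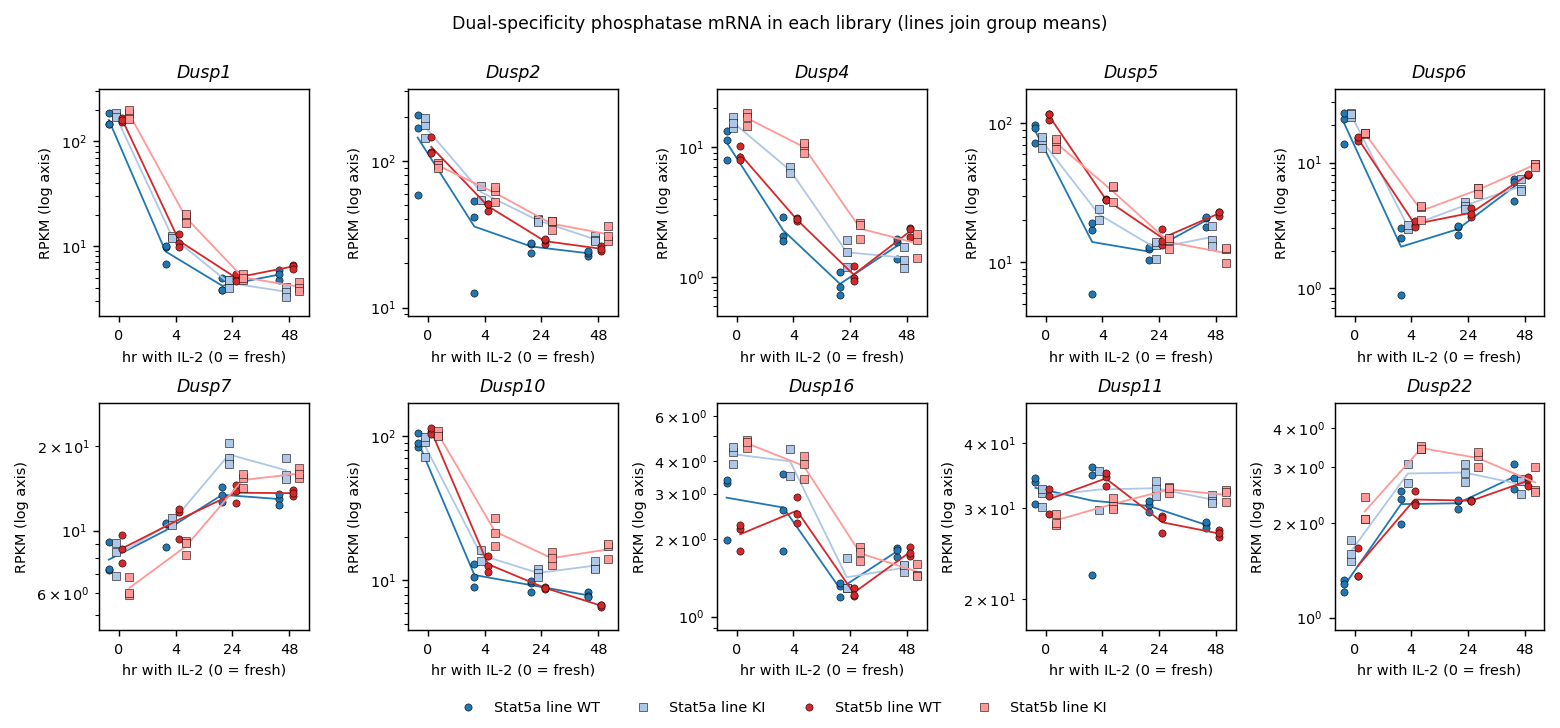
RPKM (log axis) of each gene against hr of culture, 1 point per library and lines through group means, with circles for WT and paler squares for KI cells of the *Stat5a* (blue) and *Stat5b* (red) lines. *Dusp1* falls from 145.7 to 197.9 RPKM at 0 hr to 3.29 to 6.69 RPKM at 48 hr in all 4 series, and *Dusp11* stays between 22.3 and 35.9 RPKM.

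Within 4 hr, WT cells had lost most of the mRNA of the nuclear phosphatases, *Dusp6*, and *Dusp10*, and the fall lasted to 48 hr. In the *Stat5a* line 6 of 10 genes were called lower at 4 hr, 7 at 24 hr, and 6 at 48 hr, and in the *Stat5b* line 6 at each time, where a call is an adjusted p of at most 0.05 in edgeR's quasi-likelihood test with a fold of at least 2. None was called higher. DESeq2 gave the same number of called genes in every comparison. Of all 15566 genes tested, 11.4%, 14.2%, and 22.3% were called lower in *Stat5a* WT cells at these times and 9.89%, 13.5%, and 20.7% in *Stat5b* WT cells, and 21.4%, 22.9%, and 36.6% (*Stat5a*) and 15.7%, 22.5%, and 35.3% (*Stat5b*) were called in either direction. The median log2 fold change of the 10 genes was −2.14, −2.80, and −2.10 (*Stat5a*) and −1.68, −2.24, and −1.63 (*Stat5b*), beside medians of 0.01, −0.04, and −0.12 and of −0.03, −0.04, and −0.13 over all genes. In bulk RNA, fewer cells of a type and less RNA per cell cannot be told apart.

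The deepest fall among the 10 was that of *Dusp1*, whose product dephosphorylates p38, JNK, and ERK and is a standard immediate early gene. WT libraries of the *Stat5a* line had 147.5, 186.9, and 145.7 RPKM at 0 hr, 9.87, 6.80, and 10.1 at 4 hr, 3.81, 4.98, and 3.79 at 24 hr, and 4.76, 5.95, and 5.37 at 48 hr. All libraries with IL-2 lay far below those at 0 hr. The log2 fold change was −4.14 (SE 0.12, adjusted p = 4.55e-25) at 4 hr, −5.43 at 24 hr, and −5.11 at 48 hr, falls of 17.6-, 42.97-, and 34.54-fold. *Stat5b* WT libraries went from 167.0, 152.8, and 160.0 RPKM to 13.1, 10.8, and 9.80 at 4 hr and 4.99, 5.38, and 4.64 at 24 hr. The changes there were −4.00, −5.19, and −4.82 on the log2 scale.

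*Dusp2*, whose product acts on ERK in the nucleus, fell less. *Stat5b* WT libraries had 145.9, 116.2, and 113.3 RPKM at 0 hr, 51.1, 46.0, and 50.7 at 4 hr, 27.0, 28.9, and 29.5 at 24 hr, and 26.2, 24.2, and 25.1 at 48 hr. Each time lay below the one before it, without overlap. The log2 fold changes from 0 hr were −1.52 (SE 0.24, adjusted p = 2.03e-06), −2.33, and −2.49. In the *Stat5a* line they were −2.09, −2.65, and −2.84, and −2.42, −3.00, and −3.14 without WT replicate 3 at 0 hr.

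*Dusp4*, whose product acts on ERK and JNK in the nucleus, reached its lowest level at 24 hr. WT libraries of the *Stat5b* line had 10.1, 8.34, and 7.88 RPKM at 0 hr, 2.82, 2.69, and 2.78 at 4 hr, 0.984, 1.22, and 0.936 at 24 hr, and 2.38, 2.05, and 2.33 at 48 hr. The 48 hr libraries stood above all 24 hr libraries and below all at 0 hr. The log2 fold changes from 0 hr were −1.84, −3.26, and −2.13 (SE 0.19, adjusted p = 1.53e-12 at 48 hr), and −2.19, −3.77, and −2.85 in the *Stat5a* line.

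*Dusp5*, which encodes a nuclear phosphatase specific for ERK, had 105.8 to 116.7 RPKM over the 3 libraries at 0 hr in WT cells of the *Stat5b* line, 28.6, 28.1, and 28.3 at 4 hr, 13.2, 17.3, and 14.3 at 24 hr, and 23.1, 21.4, and 23.0 at 48 hr. It too was lowest at 24 hr, with no overlap with 48 hr. The log2 fold changes were −2.17, −3.10, and −2.50 (SE 0.15, adjusted p = 7.24e-17), and −2.68, −3.04, and −2.34 in the *Stat5a* line.

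Of the cytoplasmic enzymes, only *Dusp6* was called in WT cells. WT libraries of the *Stat5a* line had 22.0, 24.9, and 14.1 RPKM of *Dusp6* at 0 hr, 2.54, 0.886, and 3.01 at 4 hr, 2.67, 3.08, and 3.12 at 24 hr, and 4.99, 7.41, and 6.99 at 48 hr. The low value at 4 hr came from replicate 2. The log2 fold changes were −3.27 (SE 0.17, adjusted p = 3.83e-18), −2.96, and −1.87. They were −2.43, −2.15, and −1.12 in *Stat5b* WT cells. *Dusp7* went the other way without reaching a fold of 2, from 7.69, 9.65, and 8.64 RPKM at 0 hr to 13.9, 13.2, and 13.6 RPKM at 48 hr in WT cells of the *Stat5b* line. Its log2 fold changes in WT cells ran from 0.16 to 0.59.

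*Dusp10*, whose product acts on p38 and JNK, fell further at each time. WT libraries of the *Stat5b* line had 106.3, 103.8, and 112.8 RPKM at 0 hr, 14.8, 12.7, and 11.4 at 4 hr, 8.75, 9.07, and 8.87 at 24 hr, and 6.77, 6.54, and 6.76 at 48 hr. None of the 4 times overlapped another. The log2 fold changes were −3.23, −3.78, and −4.18 (SE 0.14, adjusted p = 2.07e-24), and −3.03, −3.48, and −3.75 in the *Stat5a* line. *Dusp16*, which encodes a phosphatase of JNK and p38, had 3.31, 3.39, and 1.99 RPKM at 0 hr in WT cells of the *Stat5a* line and 1.32, 1.35, and 1.19 at 24 hr. It was called lower at 24 hr in that line, at −1.34 (SE 0.14, adjusted p = 2.53e-10). At 48 hr it was at −0.90, and at −1.12 and called without the 2 libraries that stood apart, which makes 7 genes called lower at that time. The log2 fold change of *Dusp16* in *Stat5b* WT cells was −0.94 at 24 hr and −0.40 at 48 hr.

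The atypical genes were not called at any time in WT cells. *Dusp11* libraries of the *Stat5b* WT cells had 32.6, 31.6, and 29.2 RPKM at 0 hr and 27.2, 26.3, and 26.8 at 48 hr, a log2 fold change of −0.40 (adjusted p = 1.83e-07). *Dusp22* had 1.32, 1.20, and 1.27 RPKM at 0 hr and 2.38, 2.52, and 1.98 at 4 hr in WT cells of the *Stat5a* line, without overlap. Its log2 fold change there was 0.95 at 4 hr and 0.94 at 48 hr, just short of the threshold of 2-fold, and 1.01 at both times without WT replicate 3 at 0 hr. Without both libraries that stood apart it was 0.60 at 4 hr and 0.93 at 48 hr.

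KI cells also had lower mRNA of 4 to 7 of the 10 genes at each time. In *Stat5a* KI cells 6, 7, and 7 of the 10 genes were called lower at 4, 24, and 48 hr, where 11.2%, 13.8%, and 16.7% of all genes were called lower and 17.8%, 21.1%, and 26% in either direction. In *Stat5b* KI cells 4 genes were called at 4 hr, all lower, and 8 at 24 and at 48 hr, of which 7 were lower and 1, *Dusp7*, was higher. Of all genes 8.85%, 11.2%, and 13.2% were called lower and 13.8%, 15.8%, and 18.8% in either direction in those cells. The median over the 10 genes was −1.59, −2.48, and −2.33 in *Stat5a* KI cells and −0.90, −1.61, and −1.80 in *Stat5b* KI cells, on the log2 scale, beside medians of −0.04, 0.00, and −0.04 and of −0.05, −0.04, and −0.02 over all genes. KI and WT cells of a line are compared with their own 0 hr libraries.

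In *Stat5b* KI cells *Dusp2* had 96.5, 94.3, and 89.3 RPKM at 0 hr and 62.9, 67.1, and 52.7 at 4 hr. These did not overlap, but the log2 fold change of −0.84 (adjusted p = 0.00368) was under 2-fold. *Dusp4* likewise changed by −0.96 in those cells, from 14.5, 18.1, and 17.0 RPKM to 10.2, 10.7, and 9.01. *Dusp1* was at 185.1, 197.9, and 165.3 RPKM at 0 hr, 19.3, 20.2, and 16.8 at 4 hr, and 4.59, 4.01, and 3.71 at 48 hr in *Stat5b* KI cells. It kept falling from 4 to 48 hr, with log2 fold changes from 0 hr of −3.51, −5.33, and −5.67. *Dusp7* was called higher at 24 hr (1.12, SE 0.11, adjusted p = 3.26e-11) and at 48 hr (1.16) in *Stat5b* KI cells, whose libraries had 5.90, 6.86, and 6.01 RPKM at 0 hr and 16.7, 15.3, and 15.9 RPKM at 48 hr. In *Stat5a* KI cells it was at 0.99 and 0.78. *Dusp16* was called lower in KI cells of both lines at 24 and 48 hr, at −1.80 and −1.70 (*Stat5a*) and at −1.57 and −1.84 (*Stat5b*).

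Few of the 10 genes were called between KI and WT cells, a share near or below that of all genes in both lines. Of the 10 genes 0, 1, 0, and 0 were called between *Stat5a* KI and WT cells at 0, 4, 24, and 48 hr, where 1.04%, 6.63%, 4.45%, and 8.78% of all genes were called. With an adjusted p of at most 0.05 and no fold threshold the counts were 1, 2, 3, and 4, where 3.44%, 24.6%, 18.5%, and 44.3% of all genes passed. An unadjusted p of at most 0.05 was found for 3, 5, 4, and 4 of the 10, and for 16.2%, 38.8%, 30.5%, and 50.6% of all genes. Without the libraries that stood apart, 0, 2, 5, and 6 of the 10 were past the adjusted p alone. Between *Stat5b* KI and WT cells 1, 1, 1, and 2 were called, where 7.98%, 10.4%, 16.7%, and 26.3% of all genes were called. Without a fold threshold 6, 7, 6, and 5 of the 10 passed, and 22.9%, 27.3%, 50.4%, and 63.6% of all genes. The median log2 difference of the 10 at the 4 times was 0.17, 0.24, 0.24, and −0.09 in *Stat5a* cells, and −0.02, 0.34, 0.39, and 0.03 in *Stat5b* cells, where over all genes it was 0.00, 0.04, 0.01, and 0.04 and 0.01, −0.03, 0.07, and 0.10. The difference of the KI effect between the lines was called for 0 of the 10 at each time by edgeR and by DESeq2, where 0.0964%, 4.72%, 2.65%, and 2.06% of all genes were called at 0, 4, 24, and 48 hr, with unadjusted p of at most 0.05 for 4, 3, 1, and 2 of the 10 and for 12.1%, 30%, 27.4%, and 24.5% of all genes. *Dusp10* at 48 hr was the 1 gene of the 10 with an adjusted p under 0.05 for that difference (0.59, SE 0.18, adjusted p = 0.026), as had 11% of all genes.

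**Figure D2:**
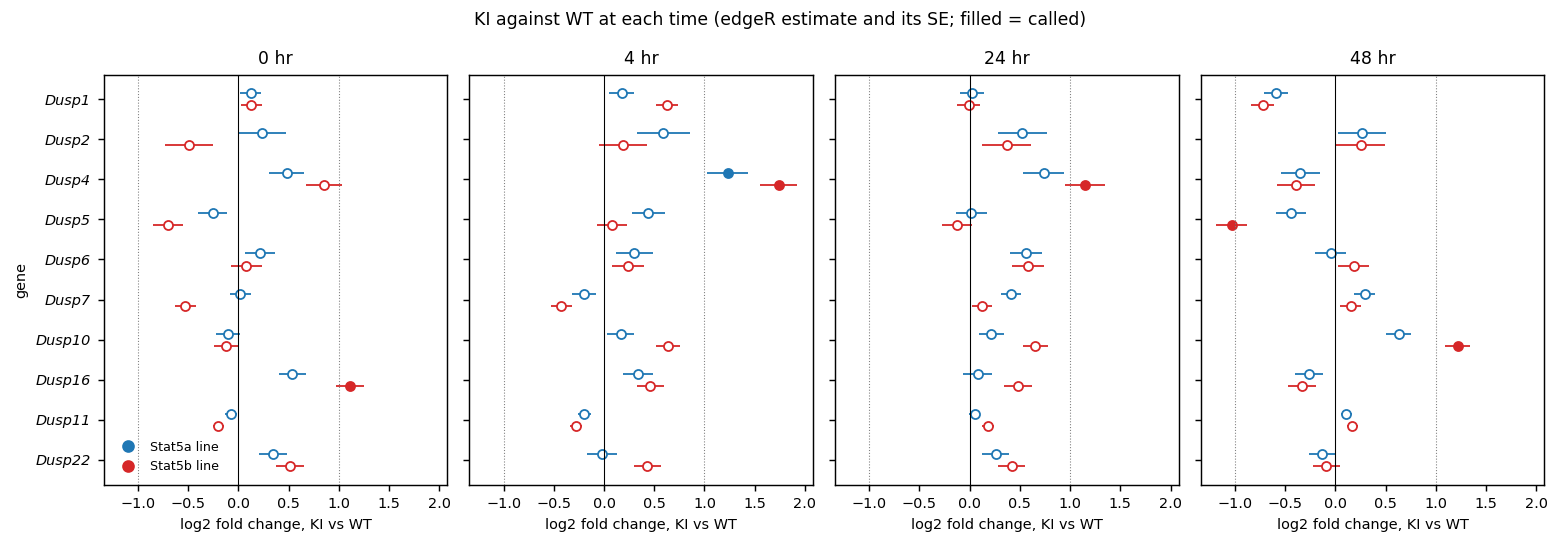
Log2 fold change of KI against WT cells (edgeR estimate with its SE as bars) for the 10 genes at 0, 4, 24, and 48 hr, in the *Stat5a* line (blue) and the *Stat5b* line (red), with filled points for called genes and dotted lines at 2-fold. *Dusp4* is called in both lines at 4 hr (1.23 and 1.74) and *Dusp10* (1.22) and *Dusp5* (−1.03) in the *Stat5b* line at 48 hr.

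Markers of other cells moved with the KI genotype. At 0, 4, 24, and 48 hr, 7.98%, 10.4%, 16.7%, and 26.3% of all genes were called in either direction between *Stat5b* genotypes. The shares in the *Stat5a* line were 1.04%, 6.63%, 4.45%, and 8.78%. All 10 B cell markers were called higher at every time in *Stat5b* KI cells compared with WT, and 5, 5, 10, and 10 in *Stat5a* KI cells at 0, 4, 24, and 48 hr. Their summed level was 63.7 RPKM in *Stat5b* WT and 251.5 in KI cells at 0 hr and 29.3 and 192.3 at 24 hr, with *Cd79a* the most abundant in KI cells, and none of the 10 was at 0 in any group. Of the 11 myeloid markers 9, 9, 11, and 11 were higher in *Stat5b* KI cells, with sums of 107.3 (WT) and 291.2 (KI) at 0 hr and 8.12 and 93.5 RPKM at 48 hr, led by *Mpeg1* or *Lyz2*. In *Stat5a* KI cells 2, 4, 5, and 7 of them were higher, with sums of 37.4 (WT) and 87.6 (KI) at 4 hr and 12.6 and 50.7 RPKM at 48 hr. All 6 erythroid markers were higher at each time in *Stat5b* KI cells, at 70.3 and 644 RPKM at 0 hr and 6.2 and 162 RPKM at 48 hr, and none was called in *Stat5a* KI cells, where the sum at 48 hr was 7.22 in WT and 19.6 RPKM in KI cells without overlap. Of 5 markers of CD4 T cells 1, 1, 3, and 3 were called higher in *Stat5b* KI cells, with sums of 56.9 (WT) and 98.3 (KI) RPKM at 0 hr and 8.30 and 23.2 at 48 hr, led by *Ctla4* or *Cd4*. In *Stat5a* KI cells 0, 0, 2, and 2 were higher, and 1 was lower at 4 hr, with sums of 9.71 (WT) and 15.4 (KI) at 48 hr. Markers of NK cells were called in both directions in *Stat5b* KI cells, 1, 1, 1, and 3 of 8 higher and 3, 2, 2, and 3 lower, with sums of 98.2 (WT) and 164.2 (KI) at 0 hr and 131.5 and 117.8 at 48 hr. In *Stat5a* KI cells 0, 0, 0, and 1 were higher and 1, 1, 3, and 2 lower, with sums of 95.7 (WT) and 115.6 (KI) at 0 hr and, without overlap, 138.4 and 110.1 at 48 hr. These sums were led by *Tyrobp* in every group at 0 hr. In WT cells at 48 hr they were led by *Eomes*, at 63.67 (*Stat5a*) and 63.24 RPKM (*Stat5b*), which is also among the memory-phenotype CD8+ T cell markers. Markers of memory-phenotype CD8+ T cells were lower in sum in KI cells before culture without overlap, at 374.4 (WT) and 280.8 (KI) RPKM in *Stat5a* and 490.2 and 326.3 RPKM in *Stat5b* cells, led by *Ly6c2*. Of these 7 genes 0, 0, 1, and 1 (*Stat5a*) and 0, 2, 3, and 4 (*Stat5b*) were called lower in KI cells at 0, 4, 24, and 48 hr and none higher. At 4 hr their sum was 294.4 and 288.7 in *Stat5a* and 466.9 and 295.2 RPKM in *Stat5b* cells. The sum was then led by *Il2rb*, at 136.8 (WT) and 118.5 (KI) RPKM in *Stat5a* and 259.3 and 107.8 RPKM in *Stat5b* cells. The paper lists *Il2rb* among the STAT5 target genes induced by IL-2. In WT cells at 48 hr, 1 myeloid marker was at 0 in each line and 1 erythroid marker in the *Stat5b* line. The 6 genes taken as defining CD8 T cells were *Cd8a*, *Cd8b1*, and the T cell genes *Cd3d*, *Cd3e*, *Cd3g*, and *Lck*. They summed to 964 to 1885 RPKM in group means, led by *Cd8b1* in all groups but 1. None was at 0 in any group, and 0 of them were called between KI and WT cells. Their sum was lower in KI cells of both lines at 0 hr and higher at 24 and 48 hr, without overlap. At 48 hr it was 1386 (WT) and 1885 (KI) RPKM in *Stat5a* and 1320 and 1885 RPKM in *Stat5b* cells. The part of other cells, and of memory-phenotype cells, in the differences of the 10 phosphatases was not tested.

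Markers of B cells and myeloid cells fell in culture in WT cells. The B cell markers called lower numbered 3, 8, and 10 of 10 at 4, 24, and 48 hr (*Stat5a*) and 5, 9, and 10 (*Stat5b*), and the myeloid markers 10, 10, and 11 of 11 and 9, 10, and 11. Of all genes 11.4%, 14.2%, and 22.3% (*Stat5a*) and 9.89%, 13.5%, and 20.7% (*Stat5b*) were called lower at these times. *Dusp7*, *Dusp11*, and *Dusp22* were not called in WT cells at 4, 24, or 48 hr. The part of B cells and myeloid cells in the fall of the other phosphatases was not tested. The share of mapped reads that lay on the transcripts was 44.863% to 84.432% over the libraries, and RPKM are not corrected for it, whereas fold changes use TMM normalization.

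**Figure D3:**
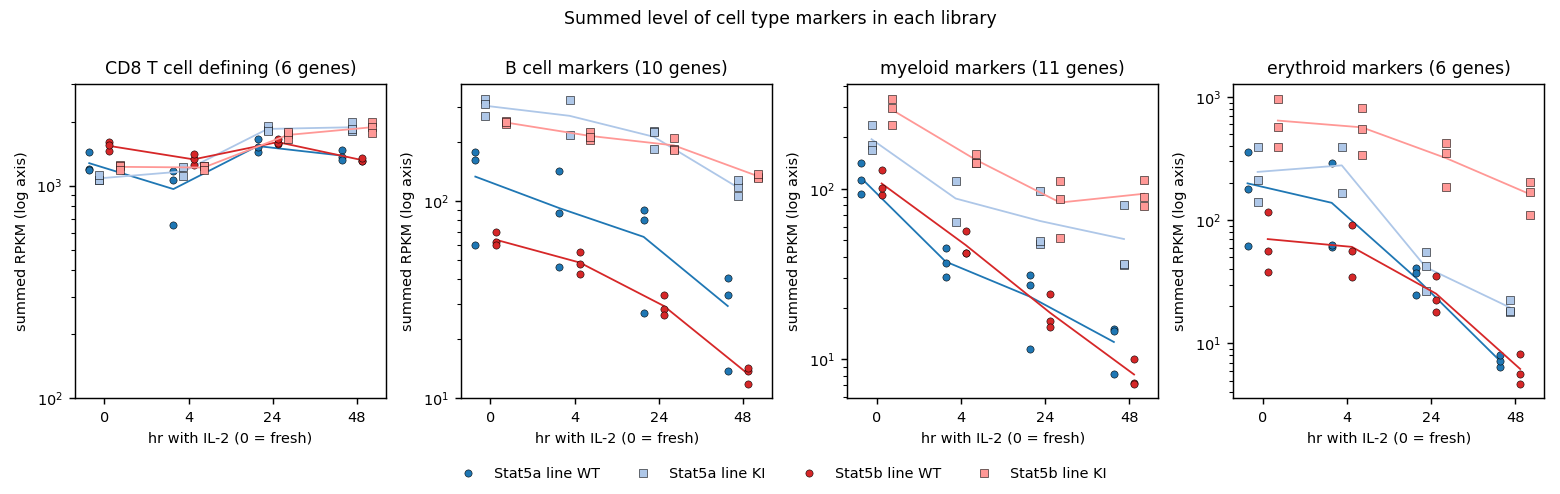
Summed RPKM (log axis) of the marker genes of 4 cell types against hr of culture, 1 point per library and lines through group means, for WT (circles) and KI (paler squares) cells of the *Stat5a* (blue) and *Stat5b* (red) lines. B cell markers sum to 63.7 RPKM in *Stat5b* WT and 251.5 RPKM in *Stat5b* KI cells at 0 hr, and the genes taken as defining CD8 T cells differ less.

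*Dusp4* was the gene with the largest KI effect among the 10. At 4 hr *Stat5b* KI libraries had 10.2, 10.7, and 9.01 RPKM and WT libraries 2.82, 2.69, and 2.78. All KI libraries were more than 3 times as high as any WT library. The log2 fold change was 1.74 (SE 0.19, adjusted p = 7.46e-09). At 24 hr the values were 2.61, 2.49, and 1.96 RPKM in KI and 0.984, 1.22, and 0.936 in WT cells, a log2 fold change of 1.14 (SE 0.20, adjusted p = 8.37e-06). At 0 hr it was 0.85 (adjusted p = 0.000563) and at 48 hr −0.39 (adjusted p = 0.0721).

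In the *Stat5a* line *Dusp4* was called at 4 hr, with 6.94 and 6.26 RPKM in KI cells and 2.88, 2.08, and 1.89 in WT cells. The KI libraries, of which there were 2, lay above all WT libraries. The log2 fold change was 1.23 (SE 0.20, adjusted p = 0.000129). Without WT replicate 3 it was 0.97, under 2-fold, and in a fit of the 2 groups alone the adjusted p was 0.735, at 1.16. At 24 hr it was 0.74.

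Other differences were called at 1 time each, in the *Stat5b* line. *Dusp16* had 4.83, 4.52, and 4.76 RPKM in KI and 2.19, 1.80, and 2.27 in WT cells at 0 hr, all KI libraries above all WT libraries. The log2 fold change was 1.11 (SE 0.14, adjusted p = 6.39e-07), and 0.99 without WT replicate 2 at 0 hr. *Dusp10* at 48 hr had 17.3, 17.9, and 14.1 RPKM in KI and 6.77, 6.54, and 6.76 in WT cells. These groups did not overlap, and the log2 fold change was 1.22 (SE 0.13, adjusted p = 1.69e-10). It was 0.64 and 0.65 at 4 and 24 hr. *Dusp5* at 48 hr had 12.4, 12.6, and 9.86 RPKM in KI and 23.1, 21.4, and 23.0 in WT cells, again without overlap, a log2 fold change of −1.03 (SE 0.15, adjusted p = 3.3e-07), and −0.99 without KI replicate 3.

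Some differences passed the test but stayed under 2-fold. *Dusp1* was higher in *Stat5b* KI cells at 4 hr by 0.62 on the log2 scale (adjusted p = 3.87e-05), with 19.3, 20.2, and 16.8 RPKM against 13.1, 10.8, and 9.80, and lower at 48 hr by −0.72 (adjusted p = 1.39e-06). It was also lower at 48 hr in *Stat5a* KI cells (−0.59, adjusted p = 7.6e-05), with 4.10, 3.66, and 3.29 RPKM against 4.76, 5.95, and 5.37. In both lines the 48 hr groups did not overlap. *Dusp6* was higher in KI cells at 24 hr in both lines (0.56 and 0.58). *Dusp7* was lower in *Stat5b* KI cells at 0 and 4 hr (−0.53 and −0.43) and higher in *Stat5a* KI cells at 24 hr (0.41). *Dusp2* was not called, with log2 differences from −0.49 to 0.59 over both lines. In RPKM its KI libraries lay above all WT libraries at 4, 24, and 48 hr in both lines. At 0 hr they lay below all WT libraries in the *Stat5b* line and overlapped them in the *Stat5a* line. *Dusp11* and *Dusp22* differed by at most 0.51 on the log2 scale in either line, from −0.28 for *Dusp11* at 4 hr to 0.51 for *Dusp22* at 0 hr, both in the *Stat5b* line.

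Whether KI and WT cells responded differently to culture with IL-2 was tested as the difference of their changes from 0 hr. In the *Stat5a* line 0 of the 10 were called at 4, 24, and 48 hr, where 0.34%, 1.59%, and 6.25% of all genes were, and 2, 2, and 6 of the 10 had an unadjusted p of at most 0.05, as had 20.9%, 16.7%, and 37.6% of all. In the *Stat5b* line 0, 0, and 3 were called, where 0.61%, 10.2%, and 21.4% of all genes were, and 5, 7, and 8 had an unadjusted p of at most 0.05, as had 9.65%, 41.7%, and 54.6% of all. *Dusp10* fell less in *Stat5b* KI than in WT cells at 48 hr, by 1.34 on the log2 scale (SE 0.17, adjusted p = 4.76e-08). *Dusp16* fell more in KI cells, with a difference of −1.44 (SE 0.20, adjusted p = 1.3e-07), from a higher level at 0 hr. *Dusp4* fell more as well, with a difference of −1.25 (SE 0.26, adjusted p = 0.000134), also from a higher level. Without the 2 libraries that stood apart, *Dusp4* was called in the *Stat5a* line at 4 hr, with a difference of 1.10 (adjusted p = 0.0247).

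Between 24 and 48 hr the mRNA of *Dusp6* in both lines, and of *Dusp4* in the *Stat5b* line, rose in WT cells. *Dusp6* was called higher at 48 than at 24 hr in WT cells of both lines, at 1.09 (SE 0.16, adjusted p = 9.03e-07) and 1.02 (SE 0.16, adjusted p = 2.29e-06). Its *Stat5b* WT libraries went from 3.70, 4.35, and 3.91 RPKM to 8.01, 8.01, and 8.04, and the KI libraries from 6.29, 6.29, and 5.66 to 9.79, 9.78, and 9.25. *Dusp4* was called in the *Stat5b* line (1.12, SE 0.20, adjusted p = 1.87e-05) and was at 0.92 (adjusted p = 0.000332) in the *Stat5a* line. *Dusp5* changed by 0.70 and 0.61. Of the 10 genes 1 was called in *Stat5a* WT cells and 2 in *Stat5b* WT cells, where 9.39% and 7.87% of all genes were called, and 0 in KI cells of either line, where 3.43% and 2.83% were, with an unadjusted p of at most 0.05 for 3 and 4 of the 10 and for 24.8% and 19.7% of all.

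The late change itself differed between KI and WT cells by at least 2-fold for *Dusp4* alone of the 10, in both lines, and 2 (*Stat5a*) and 5 (*Stat5b*) of the 10 were past the adjusted p of 0.05 without a fold threshold, beside 7.95% and 9.33% of all genes. Without the libraries that stood apart the former count was 4. In *Stat5b* KI cells *Dusp4* went from 2.61, 2.49, and 1.96 RPKM at 24 hr to 1.92, 2.13, and 1.40 at 48 hr, while WT cells went from 0.984, 1.22, and 0.936 to 2.38, 2.05, and 2.33. The KI libraries at 24 and 48 hr overlapped and the WT libraries did not. The difference was −1.54 (SE 0.28, adjusted p = 0.000364). In the *Stat5a* line it was −1.08 (SE 0.28, adjusted p = 0.0138), and −0.92 with an adjusted p of 0.0524 without KI replicate 1 at 24 hr. It was also under 2-fold without WT replicate 1 at 24 hr, WT replicate 3 at 48 hr, or KI replicate 3 at 48 hr. Of all genes 0.842% (*Stat5a*) and 1.91% (*Stat5b*) were called for this difference. *Dusp5* in the *Stat5b* line had a difference of −0.91 (adjusted p = 0.00531) and *Dusp1* of −0.62 and −0.71 (adjusted p = 0.0164 and 0.0042), under the threshold of 2-fold.

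**Figure D4:**
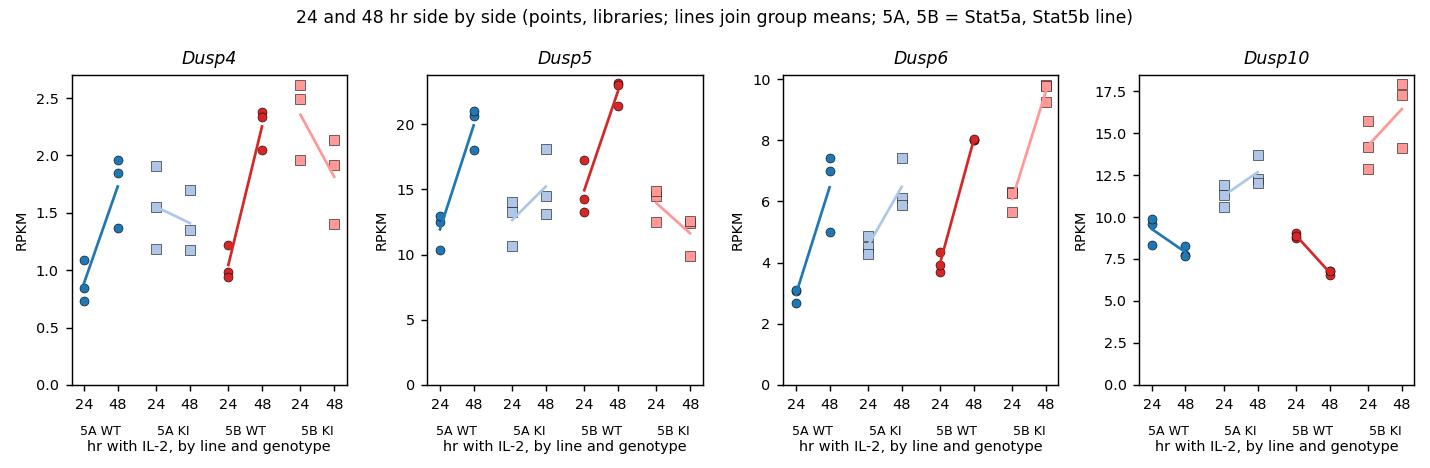
RPKM of *Dusp4*, *Dusp5*, *Dusp6*, and *Dusp10* at 24 and 48 hr, 1 point per library and lines between group means, for WT (circles) and KI (paler squares) cells of the *Stat5a* (5A, blue) and *Stat5b* (5B, red) lines. *Dusp4* rises from 0.936 to 1.22 RPKM to 2.05 to 2.38 RPKM in *Stat5b* WT cells and not in KI cells.

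Genes of the same pathway moved in their own ways in WT cells, and their counts are to be read beside the shares of all genes called lower, given above, or higher, which were 10%, 8.72%, and 14.3% (*Stat5a*) and 5.83%, 9.07%, and 14.6% (*Stat5b*) at 4, 24, and 48 hr. Of 23 early genes that ERK and p38 signaling turns on, 18, 19, and 18 were called lower at 4, 24, and 48 hr (*Stat5a*) and 15, 17, and 17 (*Stat5b*), and 0 or 1 higher. Their median log2 fold change was −1.93, −2.70, and −2.23 in the *Stat5a* line. The largest falls at 4 hr in that line were those of *Fosb* (−6.50), *Fos* (−5.51), and *Atf3* (−4.29), which encode AP-1 and ATF factors. Of 11 other dual-specificity phosphatases tested, 3, 4, and 4 (*Stat5a*) and 2, 5, and 4 (*Stat5b*) were lower, with *Dusp18* at −3.52 and −3.10 at 4 hr and *Dusp8*, a phosphatase of JNK and p38, at −6.61 and −6.37 at 48 hr in the respective lines. Both had low levels, with at most 1.298 RPKM of *Dusp18* and 1.438 RPKM of *Dusp8* in any library, so that these falls end near the floor. *Styx* and *Styxl1*, which encode pseudophosphatases, were called higher at 4 hr in the *Stat5a* line, at 1.02 and 1.29. *Styxl1* was near the floor, with 394 reads over the 47 libraries and at most 0.2915 RPKM in any of them. The mean of *Styx* went from 5.887 to 11.65 RPKM (*Stat5a*) and from 5.812 to 10.58 RPKM (*Stat5b*) between 0 and 4 hr in WT cells.

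Of 12 MAP kinases 3 and 2 were called lower and 0 higher at 4 hr, where 11.4% and 9.89% of all genes were lower. *Mapk14*, which encodes p38α, was at −1.34 in the *Stat5a* line and at −0.92, not called, in the *Stat5b* line. The summed level of the list, 13 genes with those not tested, in WT cells was 115.9 RPKM at 0 hr and 104.6 ± 37.2 (SD, n = 3) at 4 hr in the *Stat5a* line, with 61.6 RPKM in replicate 2, which stood apart. *Stat5b* WT cells had 115.1 and 132.4 RPKM at these times, and the sums at 48 hr were 148.2 and 154.8 RPKM. Of 7 MAP kinase kinases *Map2k6*, the activator of p38, was the 1 called, at −3.23 and −2.50 at 4 hr. Of 18 genes of the RAS and RAF module 4 and 3 were called higher at 4 hr, where 10% and 5.83% of all genes were, including *Rras2* (1.32 and 1.42). Of 9 other inhibitors of the ERK pathway 4 and 2 were lower at 4 hr, including the Sprouty genes *Spry4* (−3.55 and −2.27) and *Spry2* (−2.51 and −2.34).

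Each of the 10 genes had genes whose group means followed its own closely. Over the 16 groups, the Pearson correlation of mean log2 CPM was highest with *Sik1* (0.9944) for *Dusp1*, *Ier5* (0.9883) for *Dusp2*, *Sowahc* (0.9771) for *Dusp4*, *Snx18* (0.9845) for *Dusp5*, *Gem* (0.9715) for *Dusp6*, *Drc1* (0.9172) for *Dusp7*, *1700056E22Rik* (0.9934) for *Dusp10*, *Gpr31b* (0.9519) for *Dusp16*, *Usp34* (0.9361) for *Dusp11*, and *Chst12* (0.891) for *Dusp22*. The 16 group means share the libraries, depth, and the cells of 4 kinds of mice, so these values are a description.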

How the data were processed

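RNA-seq libraries were made from CD8+ T cells with a KAPA mRNA kit. The authors mapped 50-base single-end reads to mm10/GRCm38 and kept unique ones, and the submitters' processing notes name Bowtie2 2.2.6, TopHat2 2.0.11, SAMtools 0.1.8, bedtools 2.25.0, and edgeR. The deposited read counts per RefSeq transcript, whose strand setting and counting program are not given in the sources used here, were analysed, and the deposited RPKM, which the authors made from them, give the levels. Of 31682 transcripts the longest per symbol was used (23992 symbols). The 10 genes and the gene lists were chosen with earlier results of these data known.

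The 47 libraries were fitted together in R 4.3.3 with edgeR 4.0.16 (TMM, filterByExpr with a minimum count of 10, glmQLFit and glmQLFTest, 1 mean per group), which left 15566 genes, all 10 included, and 31 residual degrees of freedom. P-values were adjusted by Benjamini-Hochberg over all genes, and genes were called at 0.05 if they also changed by at least 2-fold. The fit was tested on simulated data before use, with 100 genes changed 2-fold and 100 changed 4-fold in *Stat5b* KI cells at 48 hr. For KI against WT cells 76% and 77% of these had an adjusted p of at most 0.05 in the right direction. For the response difference 72% and 69% had. Of unchanged genes 0.0781% and 0.0325% passed in the respective comparisons. Named genes were the 10 members in every comparison, the extreme called genes of each list, and for each member the genes most alike in pattern. The ChIP sample was not used here.

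Alternatives were DESeq2 1.42.0 and its size factors, limma 3.58.1 on log2(RPKM + 1) and log2(RPKM + 0.1) over genes of at least 1 RPKM in 3 libraries, no low count filter, only the groups compared, all 48 libraries, the transcript with the highest count, no fold threshold, the replicate number as a block, and each library left out in turn. Leaving out the 2 libraries that stood apart was added after seeing the data. Replicate numbers paired libraries, by correlations of their deviations from group means over 0.1 in all 3 pairs, for *Stat5a* WT cells at 24 and 48 against 0 hr (0.2055 to 0.4188 at 24 hr) and KI cells at 48 against 24 hr. No replicate pair differed by less than sampling noise. Levels were summarised in python 3.11.15 (numpy 2.4.6; pandas 2.3.3), and matplotlib 3.10.9 drew the figures. Depth was 17369112 to 60200653 reads per library, and counting error alone does not cover the spread between libraries.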

Additional observations from a re-analysis of the deposited data

Results flagged for a closer look

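The difference of a change between KI and WT cells was past the threshold for 5 results, each with an edgeR interaction contrast. In the *Stat5b* line at 48 hr against 0 hr it was 1.34 for *Dusp10*, −1.44 for *Dusp16*, and −1.25 for *Dusp4*, on the log2 scale. Between 24 and 48 hr it was −1.54 for *Dusp4* in the *Stat5b* line and −1.08 in the *Stat5a* line.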

How the results depend on the processing

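Of 6800 values of single genes over the settings 97.7% kept their side of the threshold, 1.87% gained a call, and 0.441% lost it. The sign changed in 180, of which 178 were called under neither setting and 2 were called under the alternative. Both of the latter came with all 48 libraries, for *Dusp22* in *Stat5a* cells at 4 hr: 2.64 for KI against WT and 2.30 for the difference of the responses.

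With no fold threshold the counts of the 10 genes called were 10 in *Stat5a* WT cells at 48 hr, 1, 2, 3, and 4 for *Stat5a* KI against WT, 4 for the *Stat5a* response difference at 48 hr, 6, 1, and 2 for its late change in WT, KI, and their difference, 10 and 10 in *Stat5b* WT cells at 24 and 48 hr, 9 in *Stat5b* KI cells at 4 hr, 6, 7, 6, and 5 for *Stat5b* KI against WT, 2, 6, and 7 for its response differences, 6, 1, and 5 for its late changes, and 1 for the line difference at 48 hr. With all 48 libraries they were 4 for *Stat5a* KI against WT at 4 hr, 1 for the response difference at 4 hr, and 0 for the late difference. With limma and 0.1 they were 2 for *Stat5a* KI against WT at 4 hr, 1 for *Stat5b* KI against WT at 48 hr, and 1 for its WT late change, and with limma and 1 they were 0 for the *Stat5a* WT late change and late difference, 0, 0, and 1 for *Stat5b* KI against WT at 0, 24, and 48 hr, and 0 and 0 for its WT late change and late difference. In a fit of the groups compared *Stat5a* KI against WT at 4 hr had 0, and without the 2 libraries that stood apart its response difference at 4 hr had 1. Counts past the adjusted p alone without those libraries were 1, 2, and 6 for the *Stat5a* response differences at 4, 24, and 48 hr. The cause was not tested.

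With 1 library left out, counts ran from 6 to 7 and 6 to 8 (*Stat5a* WT, 4 and 48 hr), 7 to 8 (KI, 24 hr), 0 to 1 (KI against WT, 4 hr; response difference, 48 hr; late difference), and 1 to 2 (WT late change). In the *Stat5b* line they ran from 4 to 5 and 7 to 8 (KI, 4 and 48 hr), 0 to 1 and 1 to 2 (KI against WT, 0 and 48 hr), 0 to 1 (response difference, 4 hr), and 1 to 2 (late difference).

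With the replicate number as a block, no count of called genes moved by over 1.5 times, for example 6 in *Stat5a* WT cells at 4 hr.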

Other observations

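Heat shock genes moved in both directions in culture with IL-2. Their summed level in WT cells was 1739 RPKM at 0 hr, 822.1 at 4 hr, and 2742 at 48 hr (*Stat5a*) and 1439, 1087, and 2870 at these times (*Stat5b*). Most of each sum was *Hspa8*, with 1099, 529.1, and 1699 RPKM (*Stat5a*) and 996.0, 756.1, and 1772 RPKM (*Stat5b*). In WT cells of the *Stat5a* line 7 of 9 were called lower at 4 hr, where 11.4% of all genes were. They were led by *Hspa1b* (−4.68) and *Hspa1a* (−4.60), which encode inducible chaperones. Only these 2 of 9 were called in the *Stat5b* line, at −1.84 and −1.88, where 9.89% of all genes were called lower. Whether the lines differed was not tested. *Hspd1*, a mitochondrial chaperone, was called higher at 48 hr in WT cells of both lines, at 1.67 and 2.15. At that time 5 of 7 markers of naive T cells were called lower and 5 of 7 of memory-phenotype CD8+ T cells higher in each line's WT cells, where 22.3% (*Stat5a*) and 20.7% (*Stat5b*) of all genes were called lower and 14.3% and 14.6% higher. *Stat5b* KI cells at 48 hr had 5 of the 7 naive markers called higher than WT cells, where 16.5% of all genes were, and *Stat5a* KI cells had 1, where 6.35% were.

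Some early genes were called between KI and WT cells of the *Stat5b* line. At 0 hr *Egr2* (1.42), *Egr3* (1.35), and *Atf3* (1.20), 3 of 23, were called higher in KI cells, where 7.38% of all genes were. At 48 hr *Fosl1* (−2.29), *Nr4a3* (−2.05), and *Fosl2* (−1.89) were among 5 of 23 called lower, where 9.81% of all genes were, and 1 was called higher, where 16.5% were. *Dusp14*, a phosphatase outside the 10 genes, was called higher in *Stat5b* KI cells at 0 hr (1.89) and 4 hr (1.79).

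The library left out, *Stat5a* KI replicate 3 at 4 hr, had 0.625 RPKM of *Dusp1*, 0.887 of *Dusp2*, and 2.26 of *Dusp22*.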
